A study of Homo sapiens with 9 samples.

Results

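YAP1 and WWTR1, the TEAD factors TEAD1 and TEAD4, and 6 genes known as targets of these proteins (CYR61, CTGF, ANKRD1, AXL, AMOTL2 and LATS2) were followed through MPZL3 knockdown in OVCAR4, an established line of ovarian serous adenocarcinoma. They were taken by gene name from the RNA-seq count table, and make up 10 of its 58735 genes. All 10 were among the 16928 genes with enough counts to be tested. OVCAR4 cells were transduced with lentiviral pLKO.1 vectors and selected with puromycin, and the 9 libraries fall into 3 groups of 3: a scramble hairpin (scr, genotype WT) and the hairpins shMPZL3 #1 and shMPZL3 #2 (genotype MPZL3 knock-down). All 9 share the viral transduction, the selection and the same medium, RPMI-1640 with glutamine, FBS and insulin. The study used the hairpins to ask what MPZL3, a predicted cell adhesion molecule, does in this line. As a model, the groups are transduced cultures of a single cell line, each hairpin is its own reagent, and replicates are stated to be biological, so the p-values measure the spread between such repeats of 1 line.

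YAP1 and WWTR1 (which encodes TAZ) are transcriptional coactivators that cannot bind DNA themselves and act largely through the TEAD family of DNA-binding factors. The Hippo kinase cascade, in which MST kinases activate LATS kinases, phosphorylates YAP and TAZ and keeps them out of the nucleus, and cell adhesion, cell density and tension on the cytoskeleton feed into it. CYR61 and CTGF encode secreted matricellular proteins and ANKRD1 an ankyrin repeat protein, and these genes are the usual transcript readouts of YAP-TEAD activity. AXL is a receptor tyrosine kinase, while AMOTL2 and LATS2 are targets whose products hold YAP back. The RNA of a gene does not report where its protein is or whether it is phosphorylated, and neither was measured here.

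The TEAD factors bind the letters CATTCC, which read GGAATG on the other strand, so the promoters were searched for them. RefSeq sequences on GRCh38.p14, from 250 bases before to 50 bases after a transcription start, matched 7 of the 10 genes through 10 promoters; TEAD1, TEAD4 and CYR61 had no entry. At least 1 match was found in 6 of these 10 promoters, against 14.0% of 35116 RefSeq promoters of the same length, and 2 of the 10 (CTGF and ANKRD1) held 2 or more, against 1.37%. CTGF, ANKRD1, AXL, AMOTL2 and LATS2 are in the set as known targets, so their share of matches is no independent evidence. Of the genes with a match, CTGF and ANKRD1 rose with both hairpins and LATS2 with shMPZL3 #2. AXL was called lower with shMPZL3 #1, and YAP1 and AMOTL2 were called in neither direction with either hairpin. The upstream part of the CTGF promoter (RefSeq symbol CCN2, chr6:131951373-131951622, minus strand) is shown because it held 3 matches and CTGF rose with both hairpins. It is printed 5′ to 3′ along the gene, ends at the base before the start, and has the TEAD letters in capitals.
CTGF: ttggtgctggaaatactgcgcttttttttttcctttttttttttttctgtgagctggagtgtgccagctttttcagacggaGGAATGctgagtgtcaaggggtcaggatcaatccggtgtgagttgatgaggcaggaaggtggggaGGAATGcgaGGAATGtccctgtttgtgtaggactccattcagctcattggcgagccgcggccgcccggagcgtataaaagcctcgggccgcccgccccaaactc

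The 3 CTGF matches began at positions -169, -104 and -95, counted from the start, all with GGAATG on the strand of the gene. For the other genes, windows of 30 bases around each match are shown, so that the letters beside the shared motif can be compared. They come from YAP1 (position -162, chr11:102110273-102110302, plus strand), ANKRD1 (-220, chr10:90921290-90921319, and -128, chr10:90921198-90921227, minus strand), the second promoter listed for AXL (-212, chr19:41226531-41226560, plus strand), the second promoter listed for AMOTL2 (-69, chr3:134374499-134374528, minus strand) and LATS2 (10, chr13:21061560-21061589, minus strand). Positions are counted from the RefSeq start, which need not be the start of the counted gene. By the gene positions given below, the ANKRD1 window at -128 lies inside the counted gene, and that at -220 lies before it. The AXL and AMOTL2 windows lie inside their counted genes, and the LATS2 window lies before its counted gene. Capitals again mark the TEAD letters.
YAP1: cgggagtgtgcaGGAATGtagcaacttgca
ANKRD1 at -220: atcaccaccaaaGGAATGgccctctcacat
ANKRD1 at -128: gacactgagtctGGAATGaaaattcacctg
AXL: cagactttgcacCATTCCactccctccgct
AMOTL2: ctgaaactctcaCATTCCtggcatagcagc
LATS2: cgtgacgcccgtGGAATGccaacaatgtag

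AXL and AMOTL2 carried the motif as CATTCC and the others as GGAATG. Neither of the promoters listed for WWTR1 held it. The AP-1 motif TGANTCA, present in 7.71% of all promoters, occurred in 1 of the 10, that of ANKRD1 at position -195, where it did not overlap a TEAD match. The CArG box, the site of serum response factor, was in none of the 10 and in 1.29% of all promoters. A match describes the letters of the window only, and no binding was measured.

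Libraries held 15040102 to 27835841 counts. MPZL3 itself had 536 to 611 normalized counts in scr (counts brought to the average TMM-adjusted library size), 119 to 143 with shMPZL3 #1 and 271 to 380 with shMPZL3 #2, so the 3 groups did not overlap. Of 8 ovarian epithelial markers all had counts, with PAX8, MUC16, EPCAM and KRT18 at 3381 counts or more in every library, but MSLN had 46 to 100 counts, and WT1, a usual marker of serous carcinoma, had only 3 to 13 counts and did not pass the filter. The epithelial sum was 96499 to 101256 in scr, 99641 to 121536 with shMPZL3 #1 and 98108 to 122834 with shMPZL3 #2, and within it MUC16 fell (-0.61) and PAX8 (0.29) and KRT7 (0.35) rose with shMPZL3 #1. Fibroblast markers had counts in 5 of 6 genes, and with shMPZL3 #2 in 4 of 6. They summed to 379 to 465 normalized counts in scr, 863 to 1267 with shMPZL3 #1 and 690 to 777 with shMPZL3 #2. Over the 9 libraries DCN had 0 raw counts, PDGFRA 0 to 2 and PDGFRB 0 to 6. Of the 3 tested genes of this list, COL1A1 rose with both hairpins (log2 fold changes 1.38 and 0.63), as did LUM (0.79 and 1.45). COL1A2 rose with shMPZL3 #1 (1.63). Leukocyte markers had counts in 2 of 5 genes, and with shMPZL3 #2 in 4 of 5. Their sums were 13.3 to 20.6, 22.0 to 40.7 and 32.4 to 52.7. MS4A1 had 0 raw counts in every library, and PTPRC had 4 to 26. CD14 rose with both hairpins, from a mean of 7.39 normalized counts to 24.1 and 22.6. The 4 endothelial markers summed to 168 to 208, 152 to 183 and 257 to 332, and CDH5 rose with shMPZL3 #2, from a mean of 83.2 to 173. The part of these markers in the results was not tested.

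Among the 10 genes, CYR61 had the highest level per length in scr, and AXL the lowest. The level per length is CPM (counts relative to the TMM-adjusted library size) divided by the gene length in kilobases. In scr it was 490 ± 51.1 for CYR61 (SD, n = 3), rank 43 of the 16928 genes tested. CTGF followed at 123, ANKRD1 at 90.4 and AMOTL2 at 79.1, and the libraries of ANKRD1 and AMOTL2 overlapped. YAP1 stood at 46.2, rank 949, well above WWTR1 at 10.3. TEAD4 (15.6) and TEAD1 (12.0) lay between these coactivators. LATS2 had 4.89, still above the median of all genes tested at 3.28, and AXL had 0.779, rank 12648.

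The order changed in a single place among the top genes after knockdown. ANKRD1 had a level per length of 213 with each hairpin, above CTGF at 207 with shMPZL3 #1 and 191 with shMPZL3 #2, and in both groups the libraries of ANKRD1 and CTGF overlapped. CYR61 reached rank 26 and rank 25 with levels of 820 and 884. Lower down, WWTR1 stood above TEAD1 (9.75) with shMPZL3 #1, TEAD4 and WWTR1 overlapped in that group (13.6 and 12.1), and so did TEAD1 and WWTR1 with shMPZL3 #2 (10.7 and 9.73). All other neighbours kept separate ranges in their group.

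**Figure D1:**
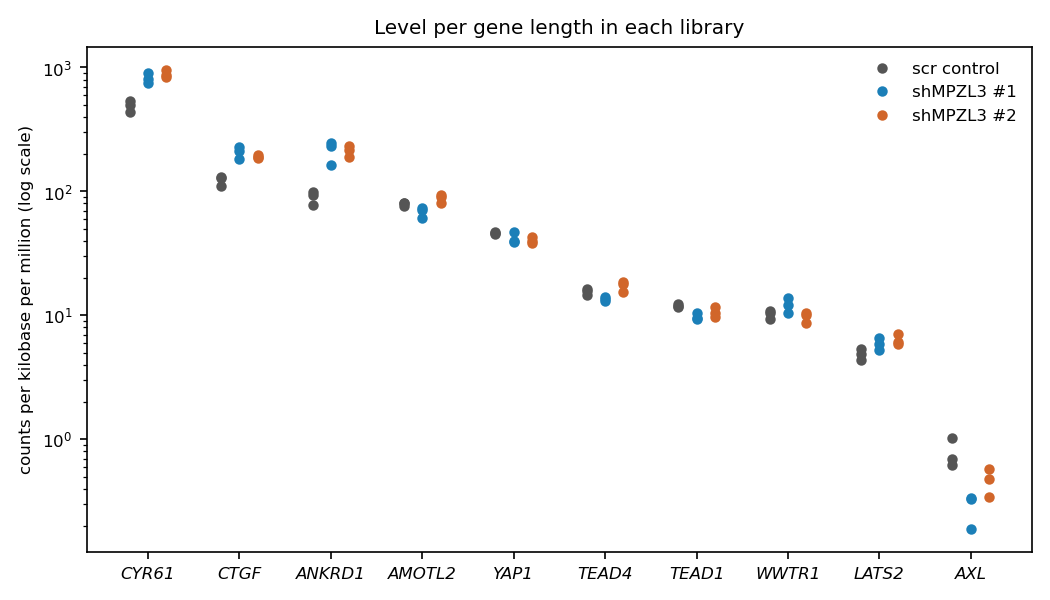
Level per length (CPM per kilobase, log scale) of each gene in the 9 libraries, ordered by the scr mean, with a point per library. CYR61 is highest throughout (490 in scr, 820 and 884 with the hairpins), and AXL is lowest (0.779 in scr).

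With shMPZL3 #1, CYR61, CTGF and ANKRD1 rose and TEAD1 and AXL fell, while the other 5 genes did not pass the test (edgeR quasi-likelihood test, Benjamini-Hochberg adjusted p under 0.05 over all genes tested). Of all genes tested, 16.8% were called higher and 15.3% lower in this comparison, so 3 of 10 higher and 2 of 10 lower stand beside a large background. With shMPZL3 #2, CYR61, CTGF, ANKRD1 and LATS2 rose and no gene of the 10 was called lower, where 9.36% of all genes were called higher and 5.80% lower. The median log2 fold change of the 10 genes was 0.05 and 0.15, against 0.01 and 0.00 over all genes. Both comparisons share the scr libraries and so are not independent of each other. The 10 genes were chosen with earlier results of these data known, so their counts and medians are no independent evidence.

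**Figure D2:**
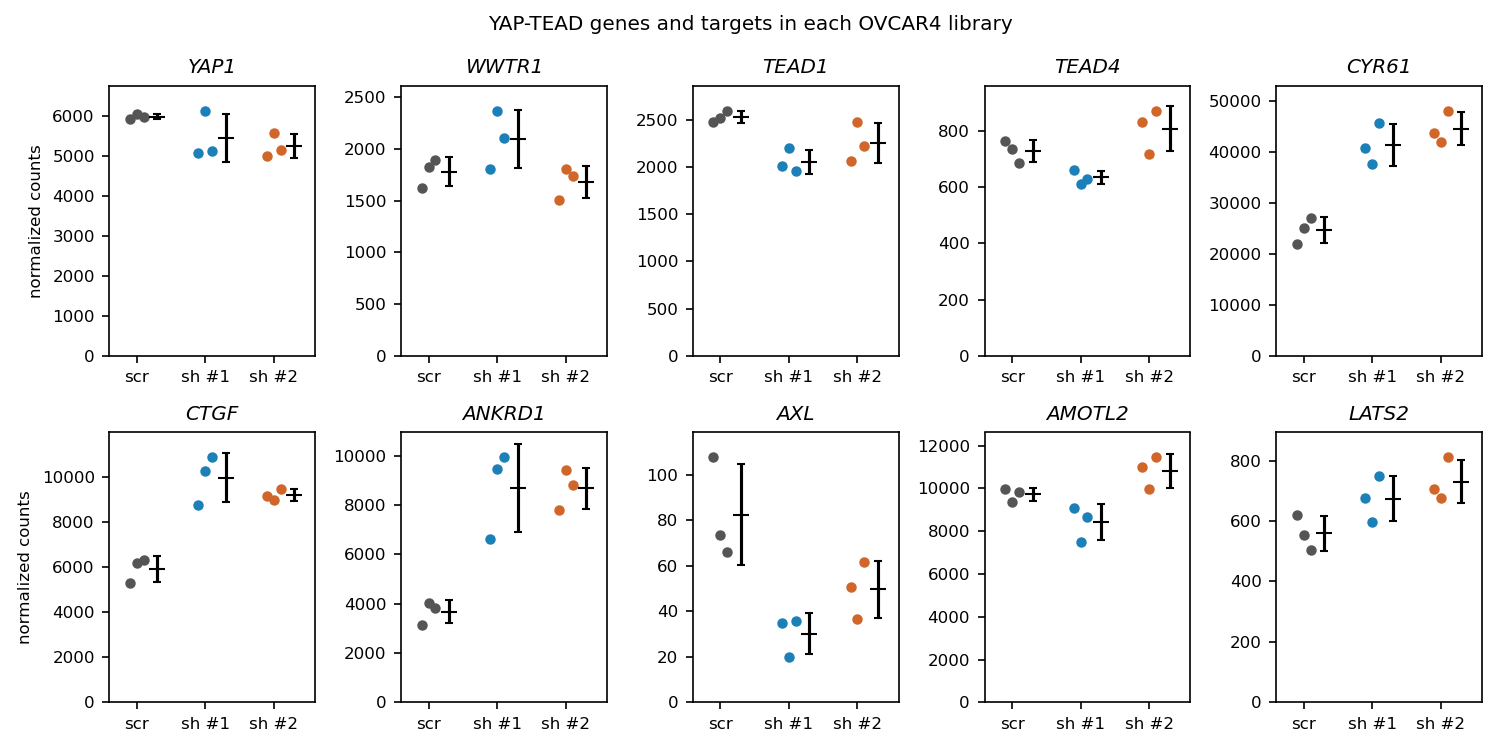
Normalized counts (linear axis from 0) of the 10 genes in each library of scr, shMPZL3 #1 (sh #1) and shMPZL3 #2 (sh #2), with points for libraries and the bar for mean ± SD, n = 3. All 6 knockdown libraries lie above all 3 scr libraries for CYR61, CTGF and ANKRD1 and below them for AXL.

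The coactivator YAP1 (chr11:102110461-102233423, plus strand, GRCh38) had 5917, 6037 and 5975 normalized counts in scr, 5081, 6133 and 5131 with shMPZL3 #1, and 5006, 5575 and 5145 with shMPZL3 #2. The scr libraries were tightly grouped, replicate 2 of shMPZL3 #1 lay above them, and the 3 shMPZL3 #2 libraries lay below them. The log2 fold change was -0.13 ± 0.10 (SE) with shMPZL3 #1 (adjusted p = 0.322) and -0.19 ± 0.10 with shMPZL3 #2 (adjusted p = 0.21). Neither passed the test, and the 95% intervals, -0.32 to 0.06 and -0.38 to 0.00, reached further below 0 than above it.

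WWTR1 (chr3:149517235-149736714, minus strand), the gene of TAZ, had 1622, 1822 and 1890 normalized counts in scr, 1809, 2371 and 2102 with shMPZL3 #1, and 1504, 1806 and 1735 with shMPZL3 #2. Libraries of each hairpin overlapped scr, while all 3 shMPZL3 #2 libraries lay below all 3 shMPZL3 #1 libraries. The log2 fold change was 0.24 ± 0.11 (adjusted p = 0.126) with shMPZL3 #1 and -0.08 ± 0.11 (adjusted p = 0.684) with shMPZL3 #2. The direct difference, #2 minus #1, was -0.32 ± 0.11 with an adjusted p of 0.0693, and it passed with DESeq2 (0.0427) and without shMPZL3 #1 replicate 1 (0.0192), over a range of 0.0124 to 0.248 in 16 alternatives. Without that library the shMPZL3 #1 comparison also passed (log2 fold change 0.35, adjusted p = 0.0275, over a range of 0.0275 to 0.398).

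TEAD1 (chr11:12674591-12944483, plus strand) had 2476, 2524 and 2598 normalized counts in scr and 2009, 2201 and 1962 with shMPZL3 #1, which did not overlap. With shMPZL3 #2 it had 2066, 2482 and 2221, and replicate 2 of that group reached the scr range. TEAD1 fell with shMPZL3 #1 by 0.30 ± 0.10 on the log2 scale (adjusted p = 0.0255), and the value with shMPZL3 #2 was -0.17 ± 0.10 (adjusted p = 0.27). The difference between the hairpins was 0.13 ± 0.10 (adjusted p = 0.392), so the effects were not shown to differ. The shMPZL3 #1 call was lost without scr replicate 2 (adjusted p = 0.0759), scr replicate 3 (0.0792), shMPZL3 #1 replicate 1 (0.0762) or replicate 3 (0.0827), or shMPZL3 #2 replicate 3 (0.0543), and with no filter on low counts (0.0506), over a range of 0.00921 to 0.0827 in 16 alternatives.

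TEAD4 (chr12:2959330-3040673, plus strand) had 762, 735 and 686 normalized counts in scr, 660, 612 and 629 with shMPZL3 #1, and 832, 718 and 871 with shMPZL3 #2. All shMPZL3 #1 libraries lay below scr, and all shMPZL3 #2 libraries lay above shMPZL3 #1. Against scr, neither value passed the test, at -0.20 ± 0.11 (adjusted p = 0.18) and 0.15 ± 0.11 (adjusted p = 0.387). TEAD4 was higher with shMPZL3 #2 than with shMPZL3 #1, by 0.35 ± 0.11 on the log2 scale (adjusted p = 0.0379).

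CYR61 (chr1:85580761-85583962, plus strand), the matricellular gene also named CCN1, had 21919, 25162 and 27010 normalized counts in scr. With shMPZL3 #1 it had 40707, 37616 and 45770.5, and with shMPZL3 #2 it had 43642, 41882 and 48142. Every knockdown library stood above every scr library, and the hairpin groups overlapped each other. CYR61 rose 1.67-fold with shMPZL3 #1 (log2 fold change 0.74 ± 0.11, adjusted p = 8.82e-05) and 1.80-fold with shMPZL3 #2 (0.85 ± 0.11, adjusted p = 4.7e-05). In bulk RNA, a change in the number of cells that express a gene and a change in RNA per cell cannot be told apart.

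CTGF (chr6:131948176-131951373, minus strand), the other matricellular gene, had 5279, 6162 and 6323 normalized counts in scr, 8764, 10255 and 10882 with shMPZL3 #1, and 9148, 8961 and 9479 with shMPZL3 #2. Its scr and knockdown libraries did not overlap, with scr replicate 1 the lowest of the 9. CTGF rose 1.68-fold with shMPZL3 #1 (log2 fold change 0.75 ± 0.10, adjusted p = 6.71e-05) and 1.55-fold with shMPZL3 #2 (0.64 ± 0.10, adjusted p = 0.000506).

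ANKRD1 (chr10:90912096-90921276, minus strand) had the largest increase of the 10 genes with each hairpin. Its normalized counts were 3154, 4033 and 3830 in scr, 6629, 9441 and 9939 with shMPZL3 #1, and 7775, 9434 and 8800 with shMPZL3 #2. The lowest knockdown library, shMPZL3 #1 replicate 1, stood well above the highest scr library. ANKRD1 rose 2.36-fold with each hairpin, at log2 fold changes of 1.24 ± 0.14 (adjusted p = 1.32e-05) with shMPZL3 #1 and 1.24 ± 0.14 (adjusted p = 1.83e-05) with shMPZL3 #2. For comparison, the 95th percentile of the log2 fold change over all genes tested was 1.26 and 1.07.

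The increases of CYR61, CTGF and ANKRD1 passed the test with either hairpin under all 16 alternatives. The highest adjusted p was 0.000836, 0.000725 and 0.000137 with shMPZL3 #1 and 0.000532, 0.00546 and 0.000163 with shMPZL3 #2. The hairpins did not differ detectably for these targets: the difference of #2 minus #1 had a 95% interval of -0.10 to 0.32 for CYR61, -0.32 to 0.09 for CTGF and -0.27 to 0.27 for ANKRD1. Residual MPZL3 was lower with shMPZL3 #1 than with shMPZL3 #2, as given above.

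AXL (chr19:41219203-41261766, plus strand), the receptor tyrosine kinase, moved the other way and was the least abundant of the 10. It had 81, 78 and 48 raw counts in scr, 38, 20 and 38 with shMPZL3 #1, and 50, 36 and 82 with shMPZL3 #2. Scaled for depth these were 108, 73.6 and 66.0, then 34.8, 19.9 and 35.9, then 50.6, 36.5 and 61.6 normalized counts, so every knockdown library lay below every scr library and every shMPZL3 #1 library below every shMPZL3 #2 library. AXL fell by 1.44 ± 0.32 on the log2 scale with shMPZL3 #1, that is 2.71-fold lower (adjusted p = 0.00234). With shMPZL3 #2 the value was -0.72 ± 0.30 and did not pass (adjusted p = 0.118, 95% interval -1.31 to -0.13), nor did the difference between the hairpins (0.72 ± 0.32, adjusted p = 0.141).

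AMOTL2 (chr3:134355874-134375479, minus strand) encodes an angiomotin family scaffold that binds YAP. It had 9970, 9364 and 9833 normalized counts in scr, 9106, 7507 and 8666 with shMPZL3 #1, and 11019, 9954 and 11466 with shMPZL3 #2. The shMPZL3 #1 libraries lay below scr without overlap, and shMPZL3 #2 replicate 2 fell within the scr range. Against scr the log2 fold changes were -0.21 ± 0.10 (adjusted p = 0.123) and 0.15 ± 0.10 (adjusted p = 0.323). AMOTL2 was higher with shMPZL3 #2 than with shMPZL3 #1 by 0.36 ± 0.10 on the log2 scale (adjusted p = 0.0209).

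LATS2 (chr13:20973032-21061547, minus strand), the kinase that phosphorylates YAP, had 620, 555 and 505 normalized counts in scr, 675, 598 and 748 with shMPZL3 #1, and 705, 675 and 812 with shMPZL3 #2. Only shMPZL3 #1 replicate 2 fell within the scr range. LATS2 rose 1.31-fold with shMPZL3 #2 (log2 fold change 0.39 ± 0.12, adjusted p = 0.0457), and with shMPZL3 #1 it had a value of 0.27 ± 0.12 (adjusted p = 0.113). The shMPZL3 #2 call stood near the threshold and was lost without scr replicate 1 (adjusted p = 0.0604), replicate 2 (0.138) or replicate 3 (0.197), or without shMPZL3 #2 replicate 1 (0.0962) or replicate 3 (0.195), over a range of 0.0194 to 0.197 in 16 alternatives. The difference between the hairpins was 0.12 ± 0.12 (adjusted p = 0.576).

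**Figure D3:**
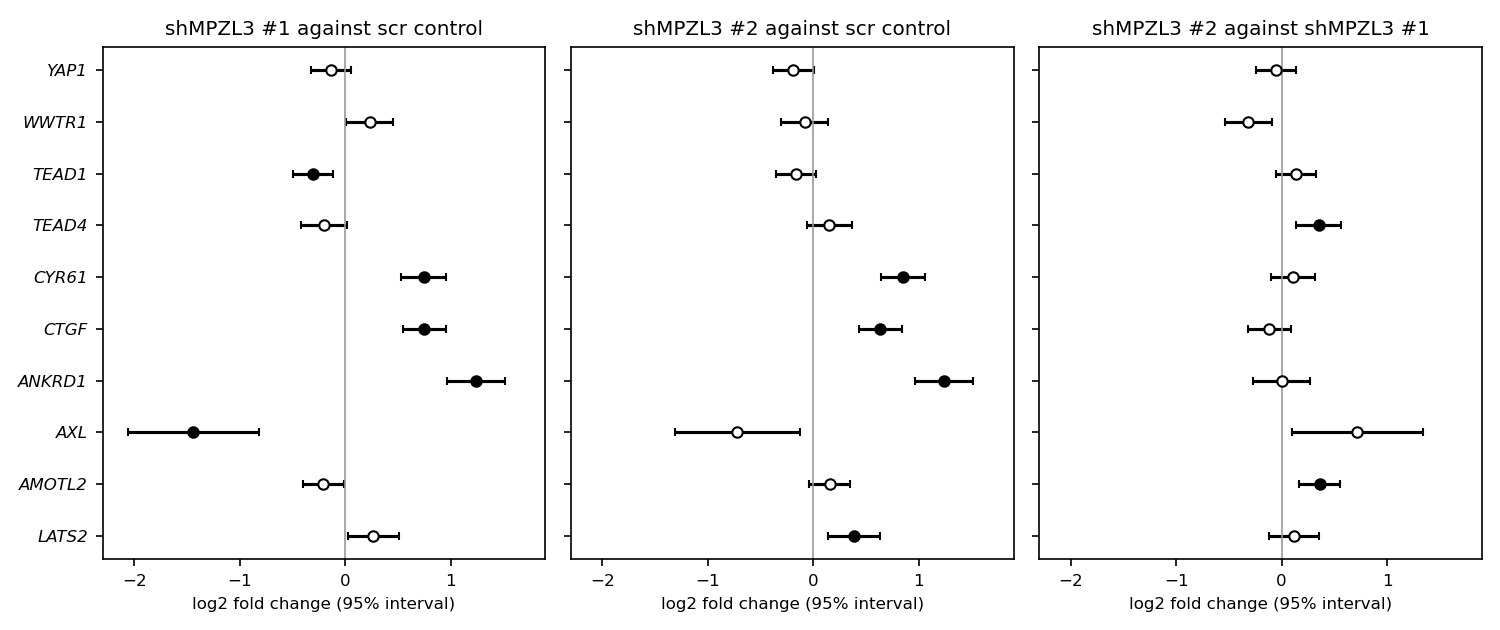
Log2 fold change with its 95% interval for each gene in 3 comparisons, filled where the adjusted p was under 0.05. CYR61, CTGF and ANKRD1 are filled and above 0 with both hairpins, and TEAD4 and AMOTL2 are filled between the hairpins (0.35 and 0.36).

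Set directly against each other, the hairpins differed for TEAD4 and AMOTL2, both higher with shMPZL3 #2, and no gene of the 10 was called lower. Of all genes tested, 7.56% were called higher with shMPZL3 #2 and another 7.56% were called lower. Both calls depended on single libraries: that of AMOTL2 was lost without shMPZL3 #1 replicate 2 (adjusted p = 0.0795) or shMPZL3 #2 replicate 1 (0.0798) or replicate 3 (0.114), over a range of 0.00288 to 0.114 in 16 alternatives. That of TEAD4 was lost without scr replicate 1 (0.0521), replicate 2 (0.0658) or replicate 3 (0.0625), shMPZL3 #1 replicate 2 (0.0925) or replicate 3 (0.0895), or shMPZL3 #2 replicate 1 (0.134) or replicate 3 (0.184), and also with upper-quartile scaling (0.0522) or no filter (0.0721), over a range of 0.0156 to 0.184. The median log2 difference of the 10 genes was 0.11, against 0.01 over all genes.

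With the 6 knockdown libraries grouped into 1 condition, as the study's methods describe, CYR61, CTGF and ANKRD1 rose and AXL fell. This fit called 9.36% of all genes higher and 6.40% lower. The log2 fold changes were 0.80 ± 0.11 for CYR61 (adjusted p = 0.000713), 0.69 ± 0.11 for CTGF (adjusted p = 0.00139) and 1.24 ± 0.14 for ANKRD1 (adjusted p = 0.000292). AXL fell by 1.04 ± 0.31 on the log2 scale (adjusted p = 0.0372). All 6 knockdown libraries lay above all 3 scr libraries for those 3 targets, as for 11.8% of all genes, and below them for AXL, as for 11.0%. For each of these 4 genes the exact permutation p, counting regroupings with an absolute difference of mean log2 CPM at least as large, was 0.0119, the smallest it can give for 6 against 3. The value restates the separation just given and is no further evidence. Regrouping takes the libraries of both hairpins as 1 condition, so it does not measure the spread between hairpins. With 3 against 3 the same test cannot go below 0.1, even for groups that do not overlap. The share of all genes without overlap in 3 against 3 was not counted. The AXL call was lost without scr replicate 1 (log2 fold change -0.81, adjusted p = 0.213), scr replicate 2 (adjusted p = 0.0893) or replicate 3 (0.0624), or shMPZL3 #1 replicate 1 (0.0697) or replicate 3 (0.0591), over a range of 0.00541 to 0.213 in 17 alternatives.

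The other 6 genes did not pass in the grouped fit: YAP1 (log2 fold change -0.16 ± 0.09, adjusted p = 0.255), TEAD1 (-0.23 ± 0.09, adjusted p = 0.11), LATS2 (0.33 ± 0.12, adjusted p = 0.0713), WWTR1 (0.09 ± 0.13), TEAD4 (-0.01 ± 0.13) and AMOTL2 (-0.02 ± 0.13). For TEAD4 and AMOTL2 the values of the separate hairpins lay on opposite sides of 0. TEAD1 passed without shMPZL3 #2 replicate 2 (adjusted p = 0.0422, over a range of 0.0422 to 0.268), and LATS2 without shMPZL3 #1 replicate 2 (adjusted p = 0.041, over a range of 0.0344 to 0.282).

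Of 16 other genes known as YAP-TEAD targets, 6 rose with shMPZL3 #1 and 6 with shMPZL3 #2, and none was called lower with either hairpin, where 16.8% and 9.36% of all genes were called higher and 15.3% and 5.80% lower. Their median log2 fold change was 0.22 and 0.16, against 0.01 and 0.00 over all genes. The list was put together with results of these libraries known, so its direction is no independent evidence. FOXF2, GADD45A, NT5E and TGFB2 were called higher with both hairpins. Both comparisons use the same scr libraries, and the share of all genes called higher with both is not given here. GADD45A, a growth arrest and DNA damage gene, had 1820 ± 429 normalized counts (SD, n = 3) in scr, 3702 ± 1043 with shMPZL3 #1 and 5389 ± 465 with shMPZL3 #2.

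TGFB2, which encodes a TGF-beta ligand, rose at log2 fold changes of 1.17 ± 0.18 (adjusted p = 0.000137) and 1.09 ± 0.18 (adjusted p = 0.000456). The forkhead factor gene FOXF2 rose by 1.03 ± 0.28 (adjusted p = 0.00948) and 1.09 ± 0.28 (adjusted p = 0.0141). It lost its call with shMPZL3 #1 without scr replicate 2 (0.0589) or shMPZL3 #1 replicate 3 (0.0534), and with shMPZL3 #2 without scr replicate 2 (0.0829) or shMPZL3 #2 replicate 2 (0.0502), over ranges of 0.0016 to 0.0589 and 0.00152 to 0.0829. NT5E, the gene of the ectonucleotidase CD73, rose by 0.65 ± 0.18 (adjusted p = 0.00946) and 0.61 ± 0.18 (adjusted p = 0.0268). Its shMPZL3 #2 call was lost without scr replicate 1 (log2 fold change 0.35, adjusted p = 0.0829) or shMPZL3 #2 replicate 3 (0.0809), over a range of 7.19e-06 to 0.0829. IGFBP3 had the highest level per length of the list, at 533 in scr, 698 with shMPZL3 #1 and 597 with shMPZL3 #2. It was called higher with shMPZL3 #1 (0.39 ± 0.10, adjusted p = 0.00684) and had 0.16 ± 0.10 with shMPZL3 #2 (adjusted p = 0.295).

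In the promoters of these other targets, 11 of the 16 genes had a RefSeq entry, with 1 promoter each. Of these 11, 4 held the TEAD letters (FOXF2, PTPN14, NUAK2 and TGFB2), against 14.0% of all promoters. These genes are listed as known targets, so their share of matches is no independent evidence. The AP-1 motif was in 1 of the 11, against 7.71% of all promoters. That was the promoter of F3, the tissue factor gene, at positions -223 and -210.

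Among 17 Hippo kinases and upstream regulators, 5 rose and 3 fell with shMPZL3 #1, and 1 rose and 2 fell with shMPZL3 #2. Over all genes, 16.8% were called higher and 15.3% lower with shMPZL3 #1, and 9.36% and 5.80% with shMPZL3 #2, so the 3 of 17 that fell with shMPZL3 #1 and the 1 of 17 that rose with shMPZL3 #2 were near or under the background. Medians were 0.02 and -0.05. Among the shMPZL3 #1 calls, that of STK4, the gene of the kinase MST1, which fell by 0.35 ± 0.11 (adjusted p = 0.0234), was lost without scr replicate 1 (0.0901), scr replicate 3 (0.0546) or shMPZL3 #1 replicate 3 (0.115), over a range of 0.00919 to 0.115 in 16 alternatives. That of AMOTL1, an angiomotin relative, which rose by 0.29 ± 0.10 (adjusted p = 0.0371), was lost without scr replicate 1 (0.142), replicate 2 (0.107) or replicate 3 (0.0667), or shMPZL3 #1 replicate 2 (0.106) or replicate 3 (0.0866), and with no filter (0.0501), over a range of 0.0101 to 0.142. FRMD6 and TAOK3 also rose with shMPZL3 #1 and kept the call under all 16 alternatives. Their log2 fold changes ranged from 0.75 to 1.14 and from 0.54 to 0.76, with highest adjusted p of 0.0164 and 0.0121. NF2, which encodes merlin, an upstream activator of the LATS kinases, had 2784 ± 93.7 normalized counts (SD, n = 3) in scr, 4945 ± 584 with shMPZL3 #1 and 4247 ± 595 with shMPZL3 #2. It rose at log2 fold changes of 0.83 ± 0.12 (adjusted p = 6.99e-05) and 0.61 ± 0.12 (adjusted p = 0.00169). WWC2, a relative of the NF2 partner KIBRA, fell by 0.55 ± 0.10 (adjusted p = 0.000393) and by 0.46 ± 0.10 (adjusted p = 0.00337). KIBRA itself (WWC1) had the highest level per length of the list, at 64.6 in scr, and values of 0.14 ± 0.11 and 0.18 ± 0.11 that did not pass.

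Between the hairpins, with differences given as #2 minus #1, 1 of the 17 regulators was called higher and 4 were called lower. Of the 16 other targets, 2 were called higher and 1 lower, and of the 5 tested TEAD and VGLL genes 1 was called higher, beside 7.56% of all genes in each direction. The medians of the 3 lists in this comparison were -0.22, 0.00 and -0.10, and the counts of different lists were not tested against each other. AMOT, the angiomotin gene, had only 6 to 18 raw counts in scr, 33 to 80 with shMPZL3 #1 and 10 to 29 with shMPZL3 #2. AMOT rose with shMPZL3 #1 (2.03 ± 0.51, adjusted p = 0.0061), a call lost without shMPZL3 #1 replicate 3 (1.57, adjusted p = 0.0562, over a range of 0.000112 to 0.0562).

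Of the other TEAD factors and their VGLL cofactors, TEAD3 rose with both hairpins. It had 706 ± 71.1 normalized counts (SD, n = 3) in scr, 1070 ± 49.1 with shMPZL3 #1 and 997 ± 99.2 with shMPZL3 #2, with log2 fold changes of 0.60 ± 0.11 (adjusted p = 0.000676) and 0.50 ± 0.11 (adjusted p = 0.00597). Its shMPZL3 #2 call was lost without scr replicate 1 (0.41, adjusted p = 0.0541, over a range of 0.00097 to 0.0541). TEAD2 had the highest level per length of this list, at 38.0 in scr, above TEAD4 and TEAD1, and values of 0.26 ± 0.10 (adjusted p = 0.0629) and 0.16 ± 0.10 (adjusted p = 0.309). The shMPZL3 #1 value of TEAD2 passed with upper-quartile scaling (0.0392), with at least 10 counts per library (0.0306), with protein-coding genes alone (0.0362) and without shMPZL3 #1 replicate 2 (0.0494), over a range of 0.0295 to 0.236 in 16 alternatives. VGLL3 rose with shMPZL3 #2 (0.80 ± 0.17, adjusted p = 0.00465) and had -0.27 ± 0.18 with shMPZL3 #1 (adjusted p = 0.253), and the hairpins differed by 1.07 ± 0.17 (adjusted p = 0.000571). In all, 1 of 5 tested genes was called higher with shMPZL3 #1 and 2 of 5 with shMPZL3 #2, against 16.8% and 9.36% of all genes, and VGLL2, the remaining gene of the 6, had no counts.

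**Figure D4:**
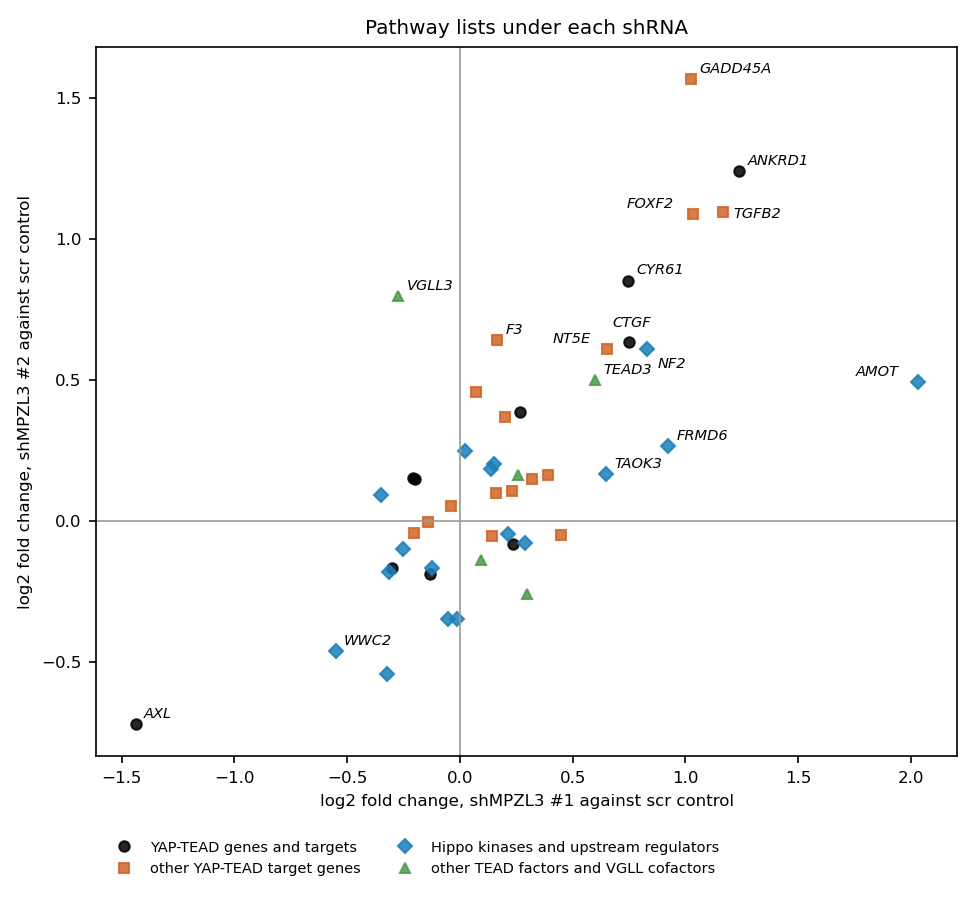
Log2 fold change with shMPZL3 #1 (horizontal) and shMPZL3 #2 (vertical) of the 10 genes and the 3 pathway lists, which share the scr libraries. ANKRD1, CYR61, CTGF, GADD45A, TGFB2 and NF2 lie to the upper right, WWC2 and AXL to the lower left, and AMOT (2.03 with shMPZL3 #1) to the far right.

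The genes whose profile lay nearest to that of ANKRD1 over the 9 libraries, by root mean square difference in log2 CPM after subtracting the scr mean, were STX11 (0.10), PARP12 (0.12) and GBP6 (0.12), out of 11916 protein-coding candidates. For AXL they were RNF157 (0.25), METTL7B (0.26) and LAMC3 (0.31). STX11 had 69.9 ± 12.9 normalized counts (SD, n = 3) in scr, 159 ± 33.8 with shMPZL3 #1 and 169 ± 4.82 with shMPZL3 #2. RNF157 had log2 fold changes of -1.55 with shMPZL3 #1 (adjusted p = 0.00129) and -0.64 with shMPZL3 #2 (adjusted p = 0.163). METTL7B had -1.42 with shMPZL3 #1 (adjusted p = 0.00158) and -0.85 with shMPZL3 #2 (adjusted p = 0.0521). LAMC3 had -1.09 (adjusted p = 0.0214) and -0.55 (adjusted p = 0.286). These genes were selected for the likeness, which is a description.

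Because the libraries do not keep strand, reads of a gene and of a partner on the other strand cannot be told apart. WWTR1 shares 795 exonic bases with WWTR1-AS1, whose total was 180 counts, while WWTR1 had 16686. AXL shares 67 with AC011510.1 (3 counts against 471), CTGF 195 with AL133346.1 (7 against 76986) and YAP1 628 with AP000942.2, which had no counts. On its own strand, AMOTL2 shares 187 exonic bases with the pseudogene RPL39P5 (74 counts against 87197). All these totals are of whole genes and do not say how reads over the shared bases were assigned.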

How the data were processed

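Poly-A, non-directional libraries of OVCAR4 were sequenced by the authors. The deposited table holds raw counts per gene, and the submitters' processing notes name hg38, HISAT2 2.0.5 and featureCounts 1.5.0-p3. The annotation is not given in the sources used here, but names and positions of all 58735 genes equal those of GENCODE 29. Counts were filtered with filterByExpr, scaled by TMM and tested with edgeR 4.0.16 (R 4.3.3; glmQLFit and glmQLFTest, two-sided, Benjamini-Hochberg over 16928 genes), with all 9 libraries in a fit of 3 groups, and in a second fit of 6 knockdown against 3 scr libraries. SE is the absolute log2 fold change divided by the square root of the F statistic. The 95% intervals are 1.96 SE to either side. This normal multiplier makes no allowance for the limited degrees of freedom, so the intervals may be too narrow. Log2 CPM used a prior count of 2. The scripts were tested on simulated data. The 10 genes and the lists were chosen with earlier results of these data known. Named list genes were those called for both hairpins in the same direction or between the hairpins, and per list the gene of highest level per length; for the 2 of the 10 genes with the largest fold change, the 3 nearest protein-coding genes of average log2 CPM of at least 1 were named. Alternatives were RLE and upper-quartile scaling, no filter, a minimum of 10 counts per library, only protein-coding genes, DESeq2 1.42.0, a replicate block and leaving out each library.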

Additional observations from a re-analysis of the deposited data

Results flagged for a closer look

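The following genes differed between the hairpins in the direct test (edgeR quasi-likelihood, Benjamini-Hochberg adjusted p), given as the log2 difference of shMPZL3 #2 minus shMPZL3 #1. Of the YAP-TEAD genes, TEAD4 differed by 0.35 (adjusted p = 0.0379) and AMOTL2 by 0.36 (adjusted p = 0.0209), and the libraries on which these calls depended are named in the report. Of the Hippo regulators, STK4, the gene of the kinase MST1, differed by 0.44 (adjusted p = 0.0123), a call lost without shMPZL3 #1 replicate 3 (0.0589), the highest of its alternatives, whose lowest was 0.00268. FRMD6 differed by -0.66 (adjusted p = 0.0298) and lost the call without shMPZL3 #1 replicate 2 (0.0795) or 3 (0.152) or shMPZL3 #2 replicate 1 (0.053) or 3 (0.12), with 0.00299 as its lowest value. TAOK3 differed by -0.48 (adjusted p = 0.023) and lost it without shMPZL3 #1 replicate 2 (0.102) or shMPZL3 #2 replicate 1 (0.085) or 3 (0.0658), with 0.0054 as its lowest. AMOT differed by -1.54 (adjusted p = 0.0386) and lost it without shMPZL3 #1 replicate 2 (0.0564) or 3 (0.234) or shMPZL3 #2 replicate 1 (0.125) or 3 (0.138), with 0.0057 as its lowest. AMOTL1 differed by -0.37 (adjusted p = 0.0209) and lost it without shMPZL3 #1 replicate 2 (0.0681) or 3 (0.0562) or shMPZL3 #2 replicate 1 (0.0927) or 3 (0.0609), with 0.00285 as its lowest.

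VGLL3, a TEAD cofactor gene, differed by 1.07 (adjusted p = 0.000571) and MYOF, a membrane repair gene among the other targets, by -0.50 (adjusted p = 0.00586), and both passed under all 16 alternatives. F3 differed by 0.48 (adjusted p = 0.0138), a call lost without shMPZL3 #2 replicate 3 (0.0882), with 0.000864 as its lowest value. GADD45A differed by 0.54 (adjusted p = 0.0475) and lost the call without scr replicate 2 (0.0563) or 3 (0.0545), shMPZL3 #1 replicate 1 (0.171) or 2 (0.109), or shMPZL3 #2 replicate 1 (0.0666), 2 (0.0761) or 3 (0.152), and with DESeq2 (0.126), upper-quartile scaling (0.0644), at least 10 counts in every library (0.0574) and protein-coding genes only (0.0537), with 3.59e-05 as its lowest value.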

How the results depend on the processing

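With 3 libraries a group, calls near the threshold moved, and the cause was not tested. With no filter on low counts, 1 of the 10 genes was called lower with shMPZL3 #1, and 1 was called higher with shMPZL3 #2 than with shMPZL3 #1, as with upper-quartile scaling. DESeq2 and the replicate block each called 1 lower between the hairpins (WWTR1). The grouped comparison taken as the mean of both hairpins in the fit of 3 groups called 2 of the 10 lower, AXL and TEAD1 (adjusted p = 0.0456), called LATS2 higher (0.0344), and called 2479 genes higher and 2198 lower in all; LATS2 also passed with at least 10 counts in every library (0.0456) and protein-coding genes only (0.0492). Leaving out a library in turn, the genes of the 10 called lower with shMPZL3 #1 numbered 1 to 2, those called higher between the hairpins 0 to 2, those called lower 0 to 1, and those called lower in the grouped fit 0 to 2. Over all genes, 1689 to 2824 were then called lower with shMPZL3 #1, 910 to 1732 higher and 354 to 1388 lower with shMPZL3 #2, 667 to 1521 higher and 798 to 1432 lower between the hairpins, and 453 to 1737 higher and 172 to 1450 lower in the grouped fit. Same-numbered libraries of different groups correlated at -0.00143 to 0.218 and passed 0.1 in 3 of 9 pairs. Pairs with different numbers reached 0.067 at most, and 13 of 18 comparisons had their own number as the best match. These values hint at a link between same-numbered libraries, from the data and not from the design. The main fit did not take the numbers as a pairing, and such a link was not tested. The replicate block called 1597 genes lower with shMPZL3 #2 and 2015 higher between the hairpins, and of the calls on the 10 genes it changed only those of WWTR1, which passed with shMPZL3 #1 (0.23, adjusted p = 0.0428) and between the hairpins (-0.31, adjusted p = 0.0124); of the named list genes it changed TEAD2, which passed with shMPZL3 #1 (0.0295). Values that changed sign, none of them called, were ANKRD1 between the hairpins (-0.0035 with RLE, -0.029 with upper-quartile scaling, -0.00015 without a filter, -0.020 with at least 10 counts, -0.017 with protein-coding genes, -0.0020 with DESeq2, and -0.17 to 0.11 leaving out a library), TEAD4 in the grouped fit (0.0036 with upper-quartile scaling, 0.014 with at least 10 counts, 0.0069 with protein-coding genes, and -0.066 to 0.029), AMOTL2 in the grouped fit (0.0020, 0.012, 0.0053, and -0.065 to 0.047), and, leaving out a library, YAP1 between the hairpins (-0.11 to 0.038), AMOT with shMPZL3 #2 (0.49 with all libraries, -0.15 without shMPZL3 #2 replicate 2, and up to 0.92) and MYOF with shMPZL3 #2 (-0.16 to 0.017). Another scaling moved the median of all genes by less than 0.1 on the log2 scale.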
